A study of Bos taurus with 8 samples.

Results

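The genes described here encode the chaperones of the endoplasmic reticulum (ER) and the proteins that sense and relieve stress in that compartment. A list of 40 such genes was looked up by name in a table of RNA-Seq counts for 24596 bovine genes, and 39 of them were found. All 39 passed the filter on low counts, while *SPCS1*, a subunit of signal peptidase, matched no row by name and is not analysed here. The RNA came from chondrocytes of the superficial zone (SZCs) and the deep zone (DZCs) of knee cartilage, taken from wild type calves 1 to 2 weeks old. Slices of the outer and inner cartilage were taken from each core, the tissue between them was discarded, and the cells were released with pronase and collagenase and cultured for 3 days in DMEM/F12 with fetal bovine serum. There were 2 libraries of each zone, described as biological duplicates. All values therefore describe cells that had left their matrix and spent 3 days in serum, not intact cartilage.

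Proteins that enter the secretory pathway are threaded into the ER through the Sec61 translocon, fold there with the help of chaperones and disulfide isomerases, and are sent back to the cytosol for destruction when they fail to fold. Unfolded protein activates 3 membrane sensors, IRE1 (encoded by *ERN1*), PERK (*EIF2AK3*) and ATF6, and the resulting unfolded protein response (UPR) raises the transcription of chaperone and degradation genes. The PERK branch also raises translation of the transcription factor ATF4, which it shares with the wider integrated stress response to amino acid shortage and other insults. Chondrocytes secrete large amounts of collagen and proteoglycan and are known to depend on this machinery.

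The 4 libraries held 19918970 to 21890549 counts, and levels are given as CPM, counts scaled by library total and TMM factor. A limit of 3 counts, set for showing that a gene is present at all, corresponds to at most 0.187 CPM. *COL2A1* took up much more of DZC replicate 1 than of the other libraries, and the TMM factor of that library was 0.735, against 1.08 to 1.14 for the others. As a check of the zone labels, all 6 superficial zone markers examined passed the test as higher in SZCs. These markers come from the study itself and are no independent evidence. Chondrocyte markers were present in every library, erythroid markers were at or below 3 counts in every library, and 8 immune markers summed to 7.15 to 29.3 CPM. The DZC libraries differed in markers of hypertrophic chondrocytes and bone, as *MMP13* received 468 counts in DZC replicate 2 and 0 in the other libraries, and *IBSP* 268 in DZC replicate 2 and 0 to 2 in the others. In bulk RNA, fewer cells of a type and less RNA per cell cannot be told apart.

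*HSPA5*, which encodes BiP, the ATP-driven chaperone that binds unfolded chains in the ER and holds the UPR sensors in check, was the only gene of the list to pass the test, and it was higher in DZCs. It received 35649 and 71871 counts in the SZC libraries (replicate 1, then replicate 2) and 147507 and 158136 counts in the DZC libraries. The corresponding levels were 1620, 3097, 9176 and 7088 CPM. Both DZC libraries lay above both SZC libraries, and the SZC libraries differed from each other 1.91-fold. The SZC mean of 2358 ± 1044 CPM (SD, n = 2) compares with a DZC mean of 8132 ± 1477 CPM (SD, n = 2), and the fitted difference was 3.45-fold. The log2 fold change of SZCs over DZCs was -1.79 (standard error 0.49, adjusted p = 0.0183 by edgeR's exact test). Across all genes tested, 2.93% passed this test, 0.700% as higher in DZCs and 2.23% as higher in SZCs, so the count of 1 gene in 39 is near the background and the result is one about *HSPA5*. A log2 fold change at least as large in either direction was found for 4.68% of all genes. The call was lost in edgeR's quasi-likelihood test (adjusted p = 0.434), after scaling to library totals (adjusted p = 0.119 by the exact test) and without SZC replicate 1 or SZC replicate 2 (adjusted p of 1 and 0.264 by edgeR's exact test).

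In SZCs, *HSPA5* made up 0.179% and 0.352% of all counts, with 95% Wilson intervals of 0.177% to 0.181% and 0.349% to 0.354%. In DZCs the shares were 0.674% (0.670% to 0.677%) and 0.767% (0.763% to 0.771%). Reads copied by PCR are not separate molecules, so these intervals reflect counting error alone. The 38 other genes of the list together made up 1.09% and 1.11% of the counts in SZCs and 0.973% and 0.980% in DZCs. After TMM scaling these 38 genes summed to 9860 and 9762 CPM in SZCs and to 13245 and 9053 CPM in DZCs, so they were spread more widely between the DZC libraries than their shares.

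Ratios of counts within a library do not depend on how the libraries are scaled. For each count of *HSP90B1*, which encodes GRP94, the HSP90 chaperone of the ER, the SZC libraries held 1.26 and 2.26 counts of *HSPA5*, while the DZC libraries held 5.90 and 5.99. This is a 3.52-fold difference between the zones, and gene length does not enter it because each ratio is compared only with itself. The p-value of an exact permutation test, two-sided, was 0.333, which is the lowest possible with 2 libraries against 2. The ratio of *HSPA5* to *CANX*, the gene of the membrane chaperone calnexin, was 1.60 and 3.05 in SZCs and 8.82 and 6.23 in DZCs. For 37 of the 38 other genes, against 94.8% of all other genes tested, the lower DZC ratio exceeded the higher SZC ratio, and over all 38 the difference between zones had a median of 3.21-fold and a range from 1.95-fold for *PPP1R15A* to 5.39-fold for *EDEM1*. The exception was *PPP1R15A*, where DZC replicate 1 lay at 69.2, under the 71.6 of SZC replicate 2. These ratios share the numerator and are not independent of one another, and their order is a property of *HSPA5* and not of the genes it is set against.

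**Figure D1:**
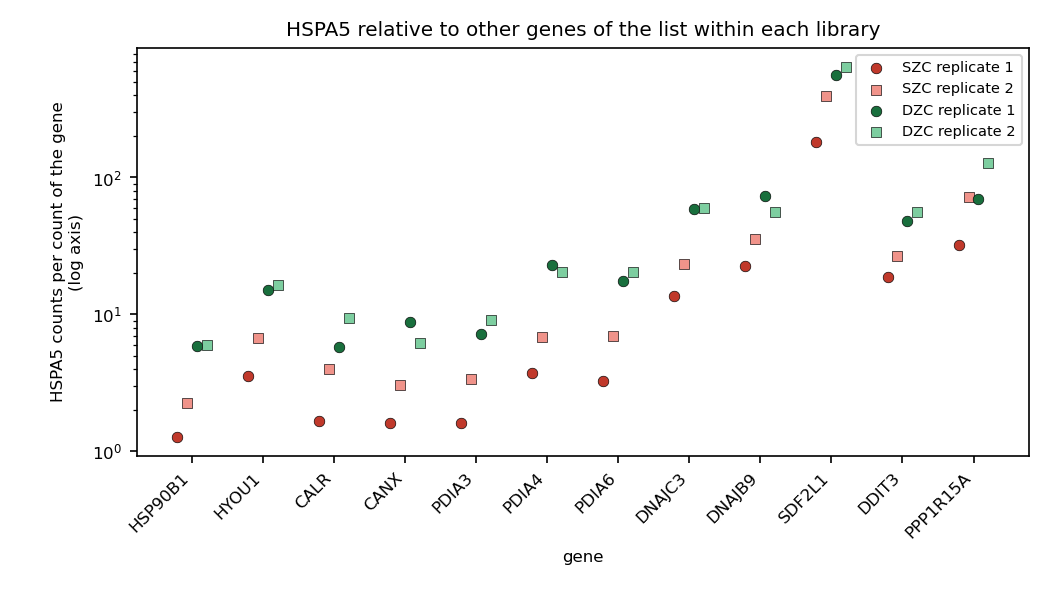
Counts of *HSPA5* per count of each of 12 other genes (x axis) in each library (y axis, log scale), with 1 point for each library and no averaging. For *HSP90B1* the SZC points lie at 1.26 and 2.26 and the DZC points at 5.90 and 5.99, and the DZC points lie above the SZC points for every gene shown except *PPP1R15A*.

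The log2 fold change of *HSPA5* had the same sign under all 11 alternatives, from -2.33 without SZC replicate 2 to -1.40 without SZC replicate 1. It passed the threshold under 6 of them, with adjusted p-values from 2.35e-05 to 1 over all 11. DESeq2 gave an adjusted p of 0.00171. The shares of all genes called differed as well, at 0.00% in the quasi-likelihood test, 3.09% in DESeq2, 2.58% with library totals, 0.436% and 1.13% without SZC replicate 1 or 2, and 6.67% and 20.7% without DZC replicate 1 or 2. The direction did not depend on any single library, whereas the call was lost when either SZC library was left out. With all libraries present the gene passed under 4 of 7 alternatives. Without DZC replicate 1 and without DZC replicate 2 the gene still passed, with log2 fold changes of -1.58 and -1.94.

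**Figure D2:**
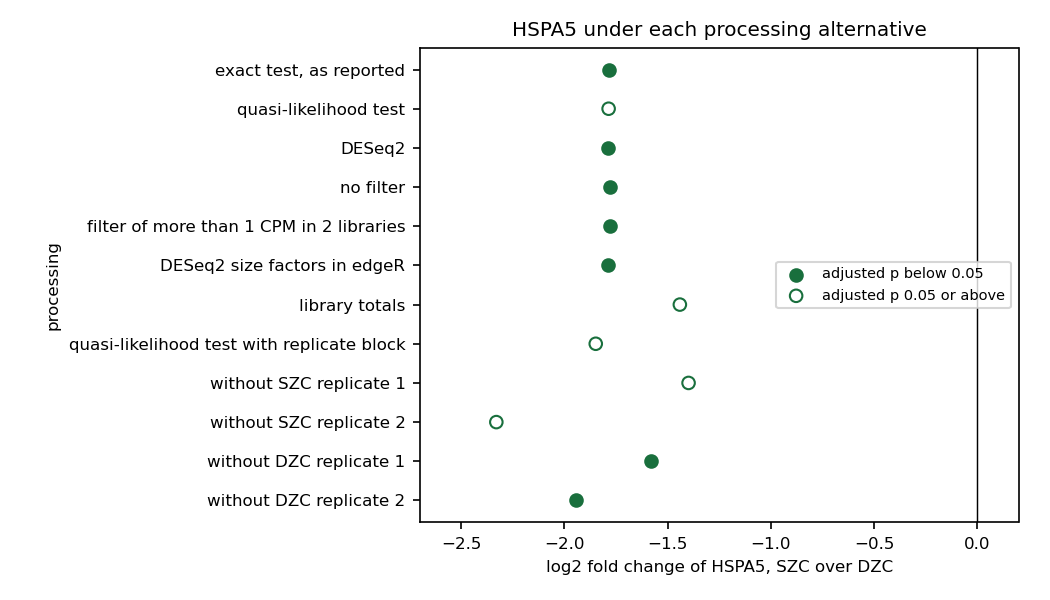
Log2 fold change of *HSPA5*, SZCs over DZCs (x axis), for the exact test as reported and for 11 alternatives (y axis); filled points have an adjusted p below 0.05. All 12 points lie below 0, between -2.33 and -1.40, and 5 of the alternatives are open points.

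The other HSP70 and HSP90 chaperones of the ER did not pass the test. Overlap of the zones is given for TMM-scaled levels unless library totals are named. *HSP90B1* was at 1282 and 1373 CPM in SZCs and at 1555 and 1183 CPM in DZCs, and the zones overlapped. Its log2 fold change was -0.04 (standard error 0.39, 95% interval -0.81 to 0.72). This interval does not reach the -1.79 of *HSPA5*, which itself had a 95% interval of -2.74 to -0.83. The intervals do not test the difference between the genes. *HYOU1*, the gene of a large HSP70-like protein that exchanges the nucleotide of BiP, was at 455 and 460 CPM in SZCs and at 613 and 433 CPM in DZCs. Its log2 fold change was -0.19 (95% interval -0.95 to 0.56). For both genes DZC replicate 1 was the highest library and DZC replicate 2 the lowest, and both log2 fold changes turned positive under library-total scaling, at 0.30 and 0.16, where both SZC libraries lay above both DZC libraries.

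Several genes of the co-chaperones that work with BiP had DZC levels above both SZC levels, but none passed the test. *DNAJB9* (ERdj4), which recruits BiP to IRE1 and to clients destined for degradation, was at 71.5 and 86.5 CPM in SZCs and at 125.9 and 125.7 CPM in DZCs. Its DZC libraries were nearly equal with TMM but not on library totals, where they were at 92.5 and 136.0 CPM and overlapped with the SZC libraries at 79.0 and 98.2 CPM. The fitted log2 fold change with TMM was -0.67 (standard error 0.34, adjusted p = 0.564 by edgeR's exact test). *DNAJB11* (ERdj3) was at 60.0 and 72.4 CPM in SZCs and at 122 and 77.7 CPM in DZCs, and *SDF2L1*, whose product forms a complex with it, was at 8.86 and 7.84 CPM in SZCs and at 16.4 and 11.0 CPM in DZCs. Their log2 fold changes were -0.59 and -0.71, with adjusted p-values of 0.8 and 0.788 by edgeR's exact test. *DNAJC3*, which encodes p58IPK, was at 119 and 132 CPM in SZCs and at 155 and 118 CPM in DZCs, a log2 fold change of -0.11. *DNAJC10*, which encodes a disulfide reductase of the ER, was at 38.1 and 44.5 CPM in SZCs and at 35.1 and 52.5 CPM in DZCs, a log2 fold change of -0.09. The zones overlapped for these last 2 genes, though on library totals *DNAJC3* was higher in both SZC libraries. Non-overlap alone was common in this table: 20.5% of all genes tested had both DZC libraries above both SZC libraries, and 21.0% had the opposite order. On library totals these shares were 7.51% and 36.1%.

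Calnexin and calreticulin are lectins that hold glycoproteins during folding, and PDIA3 is the disulfide isomerase that works with them. *CALR* was at 975 and 778 CPM in SZCs and at 1581 and 753 CPM in DZCs, so DZC replicate 1 lay above, and DZC replicate 2 below, both SZC libraries. *CANX* was at 1010, 1017, 1040 and 1137 CPM in the same order and had a log2 fold change of -0.10, but on library totals it was at 1116 and 1155 CPM in SZCs and at 764 and 1231 CPM in DZCs, so that the zones overlapped. *PDIA3* was at 1007 and 921 CPM in SZCs and at 1266 and 783 CPM in DZCs, with a log2 fold change of -0.09, and on library totals it was higher in both SZC libraries. Of the other isomerases, *PDIA4* was at 435 and 456 CPM in SZCs and at 399 and 348 CPM in DZCs. Both SZC libraries lay above both DZC libraries under either scaling, with a log2 fold change of 0.25 (95% interval -0.45 to 0.96, adjusted p = 0.998 by edgeR's exact test). *PDIA6*, at 499 and 444 CPM in SZCs and 526 and 347 CPM in DZCs, overlapped between zones with TMM but was higher in both SZC libraries on library totals. *PDIA5* was at 41.5 and 42.7 CPM in SZCs, 76.3 CPM in DZC replicate 1 and 43.4 CPM in DZC replicate 2. Its DZC mean thus rested on DZC replicate 1, and on library totals the zones overlapped.

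ER-associated degradation (ERAD) extracts misfolded proteins through a channel formed around the ubiquitin ligase SYVN1 (HRD1) and its partner SEL1L. *SEL1L* was at 161 and 192 CPM in SZCs and at 105 and 158 CPM in DZCs, with both SZC libraries above both DZC libraries. Its log2 fold change was 0.43 (standard error 0.39, adjusted p = 0.934 by edgeR's exact test). *EDEM1*, the gene of a mannosidase-like protein that marks glycoproteins for disposal, had the highest log2 fold change of the list, 0.57 (95% interval -0.15 to 1.29, adjusted p = 0.788 by edgeR's exact test). It was at 63.9 and 50.7 CPM in SZCs and at 32.3 and 44.7 CPM in DZCs, also without overlap. *EDEM2* followed the same order at 23.6, 21.2, 20.1 and 18.2 CPM. *SYVN1* was at 87.8 and 74.4 CPM in SZCs and at 85.2 and 61.9 CPM in DZCs, and the zones overlapped with TMM, while both SZC libraries were higher on library totals.

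The remaining ERAD genes had log2 fold changes from -0.62 to 0.01. *HERPUD1*, which encodes a scaffold of the same complex, was at 223 and 215 CPM in SZCs and at 348 and 207 CPM in DZCs. Among the derlins, which form part of the exit channel, *DERL2* was at 42.6 and 42.4 CPM in SZCs and at 84.0 and 46.9 CPM in DZCs. *DERL1* was at 53.1, 52.5, 58.4 and 46.8 CPM in the same order, and on library totals it was higher in both SZC libraries. *DERL3* had low counts, with 22 in each SZC library and 15 and 34 in the DZC libraries, and had the widest error of the list (standard error 0.69). With TMM, DZC replicate 1 stood apart from the other 3 libraries for *HERPUD1* and *DERL2*. With CPM taken from library totals alone *HERPUD1* lay at 246 and 244 in SZCs and at 255 and 224 in DZCs. On the same scale *DERL2* lay at 47.1 and 48.2 in SZCs and at 61.7 and 50.8 in DZCs, without overlap.

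*CRELD2* and *MANF* encode small ER proteins that are induced by the UPR and can be secreted. *CRELD2* was at 22.9 and 30.5 CPM in SZCs and at 39.9 and 30.3 CPM in DZCs. *MANF* was at 87.9 and 94.7 CPM in SZCs and at 163 and 73.8 CPM in DZCs, a 2.20-fold difference between the DZC libraries. The zones overlapped for both genes, with log2 fold changes of -0.39 and -0.37.

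Levels of the 3 UPR sensors overlapped between the zones with TMM, whereas on library totals *EIF2AK3* was higher in both SZC libraries. *ERN1* was at 26.7 and 34.1 CPM in SZCs and at 18.0 and 31.3 CPM in DZCs, *ATF6* at 71.1 and 82.0 CPM and at 49.3 and 76.6 CPM, and *EIF2AK3* at 108 and 96.6 CPM and at 99.8 and 85.7 CPM. Their log2 fold changes were 0.30, 0.28 and 0.14, with standard errors of 0.43, 0.38 and 0.34. *ERN1* and *ATF6* were lowest in DZC replicate 1. *XBP1*, whose transcript is spliced by IRE1 to give an active transcription factor, was at 285 and 293 CPM in SZCs and at 497 and 255 CPM in DZCs. Counts per gene do not separate its spliced from its unspliced form, so they do not report IRE1 activity. *CREB3*, which encodes a membrane-bound factor of the CREB family that is cleaved as ATF6 is, was at 24.6, 27.9, 24.9 and 22.2 CPM with TMM, but on library totals it was at 27.2 and 31.7 CPM in SZCs and at 18.3 and 24.1 CPM in DZCs, without overlap. *WFS1*, the gene of the ER membrane protein wolframin, was at 20.4 and 20.5 CPM in SZCs and at 31.5 and 21.3 CPM in DZCs, without overlap with TMM and with overlap on library totals.

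None of the 7 genes of the integrated stress response passed the test. With TMM all 7 had log2 fold changes below 0, as had 6870 of all 12857 genes tested, but on library totals *ASNS* (0.12) and *PPP1R15B* (0.15) were above 0. *PPP1R15A*, which encodes GADD34, the phosphatase subunit that ends the translation block, had the lowest value after *HSPA5*. It was at 50.3 and 43.3 CPM in SZCs and at 133 and 56.0 CPM in DZCs, which gave -1.01 on the log2 scale (standard error 0.49, adjusted p = 0.51 by edgeR's exact test). Both DZC libraries lay above both SZC libraries, but DZC replicate 2 was much closer to SZCs than to DZC replicate 1. *DDIT3*, which encodes the pro-apoptotic factor CHOP, was at 85.9 and 116 CPM in SZCs and at 190 and 126 CPM in DZCs, and *CHAC1*, which encodes a glutathione-degrading enzyme induced by ATF4, was at 67.9 and 68.2 CPM and at 138 and 72.9 CPM. Their log2 fold changes were -0.65 and -0.63, with adjusted p-values of 0.756 and 0.816 by edgeR's exact test. *ATF4* itself was at 1139 and 1152 CPM in SZCs and at 1948 and 1086 CPM in DZCs. It is controlled mainly at translation, which RNA counts do not measure.

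Of the other ATF4 targets, *TRIB3*, which encodes a pseudokinase that restrains ATF4 and CHOP, was at 120 and 128 CPM in SZCs and at 195 and 126 CPM in DZCs. *ASNS*, the gene of asparagine synthetase, was at 285 and 340 CPM and at 447 and 293 CPM. Their log2 fold changes were -0.37 and -0.24. *PPP1R15B*, the constitutive counterpart of *PPP1R15A*, was at 77.9 and 92.9 CPM in SZCs and at 80.2 and 105 CPM in DZCs, and the zones overlapped. With TMM the 6 genes other than *PPP1R15B* were each more than 1.5-fold higher in DZC replicate 1 than in DZC replicate 2 (21.4% of all genes), but on library totals only *PPP1R15A* was (5.38% of all genes).

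Neither translocon gene passed the test. *SEC61B*, a small subunit of the Sec61 channel, was at 187 and 168 CPM in SZCs and at 295 and 133 CPM in DZCs. *SSR1*, a subunit of the translocon-associated protein complex, was at 543 and 491 CPM in SZCs and at 652 and 462 CPM in DZCs. The log2 fold changes were -0.27 and -0.11, and DZC replicate 1 was the highest and DZC replicate 2 the lowest library for both with TMM. On library totals *SSR1* was higher in both SZC libraries.

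**Figure D3:**
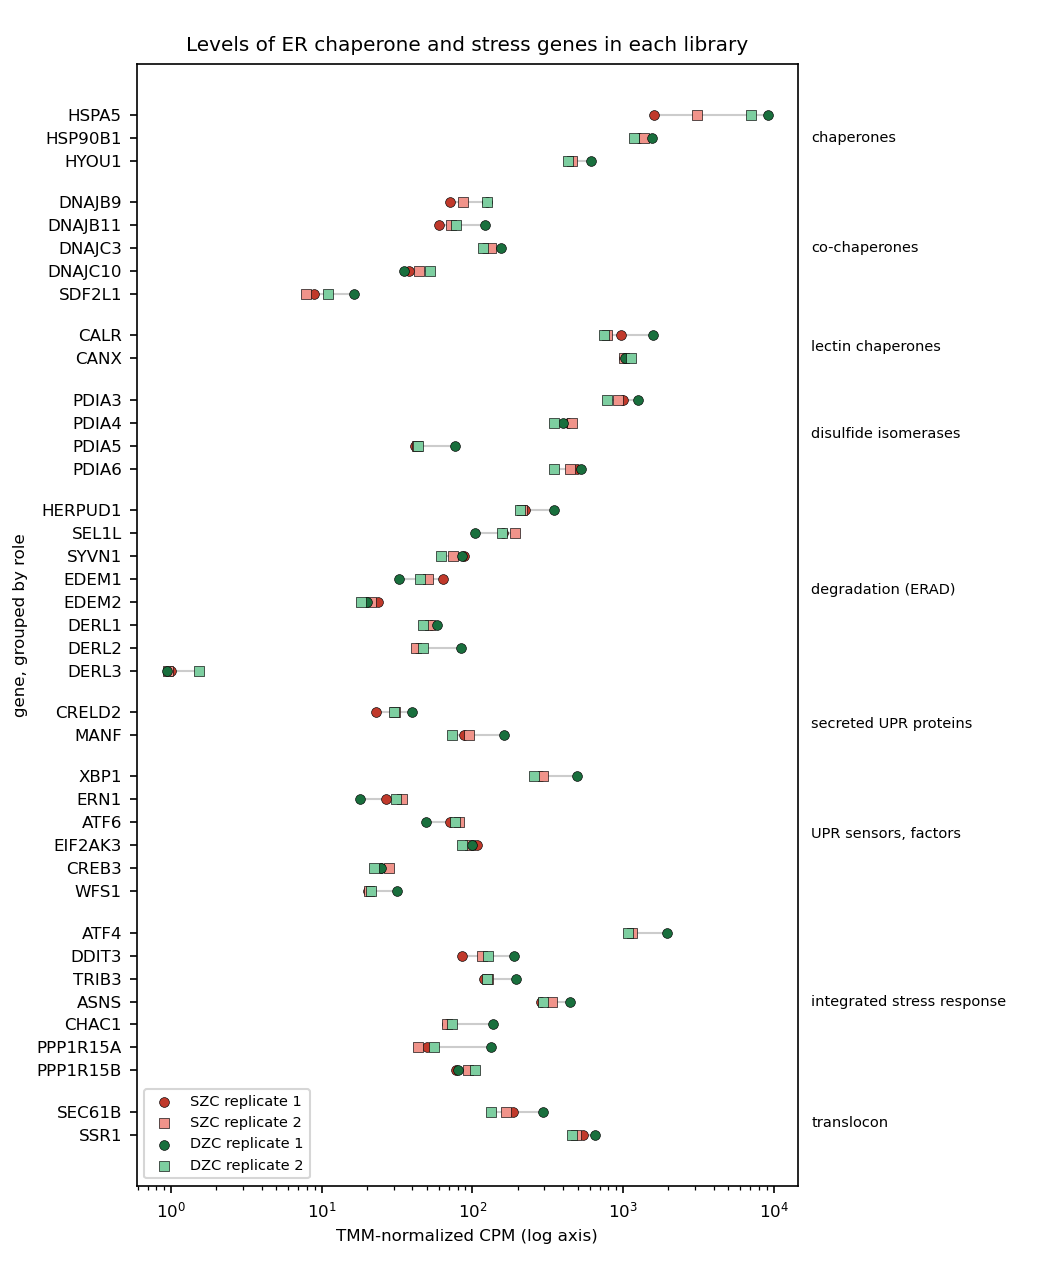
Level of each of the 39 genes in each library (x axis, TMM-normalized CPM on a log scale), with genes on the y axis grouped by role and a grey line from the lowest to the highest library. For *HSPA5* the DZC points (9176 and 7088 CPM) lie apart from the SZC points (1620 and 3097 CPM), while in most other rows DZC replicate 1 (dark green circle) is the single highest point, which on library totals holds for 13 of the 39 genes.

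Over the 39 genes, the median log2 fold change was -0.24, against -0.04 over all 12857 genes tested. With *HSPA5* left out it was -0.22. There were 28 genes below 0 and 11 above, and the 38 genes other than *HSPA5* had values from -1.01 to 0.57 with standard errors of 0.34 to 0.69. In edgeR's exact test 0 of the 39 genes passed as higher in SZCs, and 0 did so at an unadjusted p-value below 0.05, in that test, in the quasi-likelihood test or in DESeq2. Below an unadjusted 0.05 in edgeR's exact test, there were 2 genes, *HSPA5* and *PPP1R15A*, against 9.09% of all genes. The quasi-likelihood test gave *HSPA5* and *DNAJB9* (1126 of all genes), and DESeq2 gave all 3 of these (1167 of all genes). With TMM there were 11 genes with both DZC libraries above both SZC libraries and 4 with the opposite order, where the whole table gives 20.5% and 21.0%. On library totals there were 7 and 14, where the whole table gives 7.51% and 36.1%. Under library-total scaling, the median of all genes moved by 0.30 and that of the list moved to 0.14, so the small negative values of most genes depend on the scaling. Relative to the median of all genes the list lay 0.20 lower with TMM and 0.12 lower with library totals. With 2 libraries per zone, 0 of the 38 genes other than *HSPA5* passed edgeR's exact test. Their 95% intervals extend as far as -1.98 (*PPP1R15A*) and 1.29 (*EDEM1*).

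**Figure D4:**
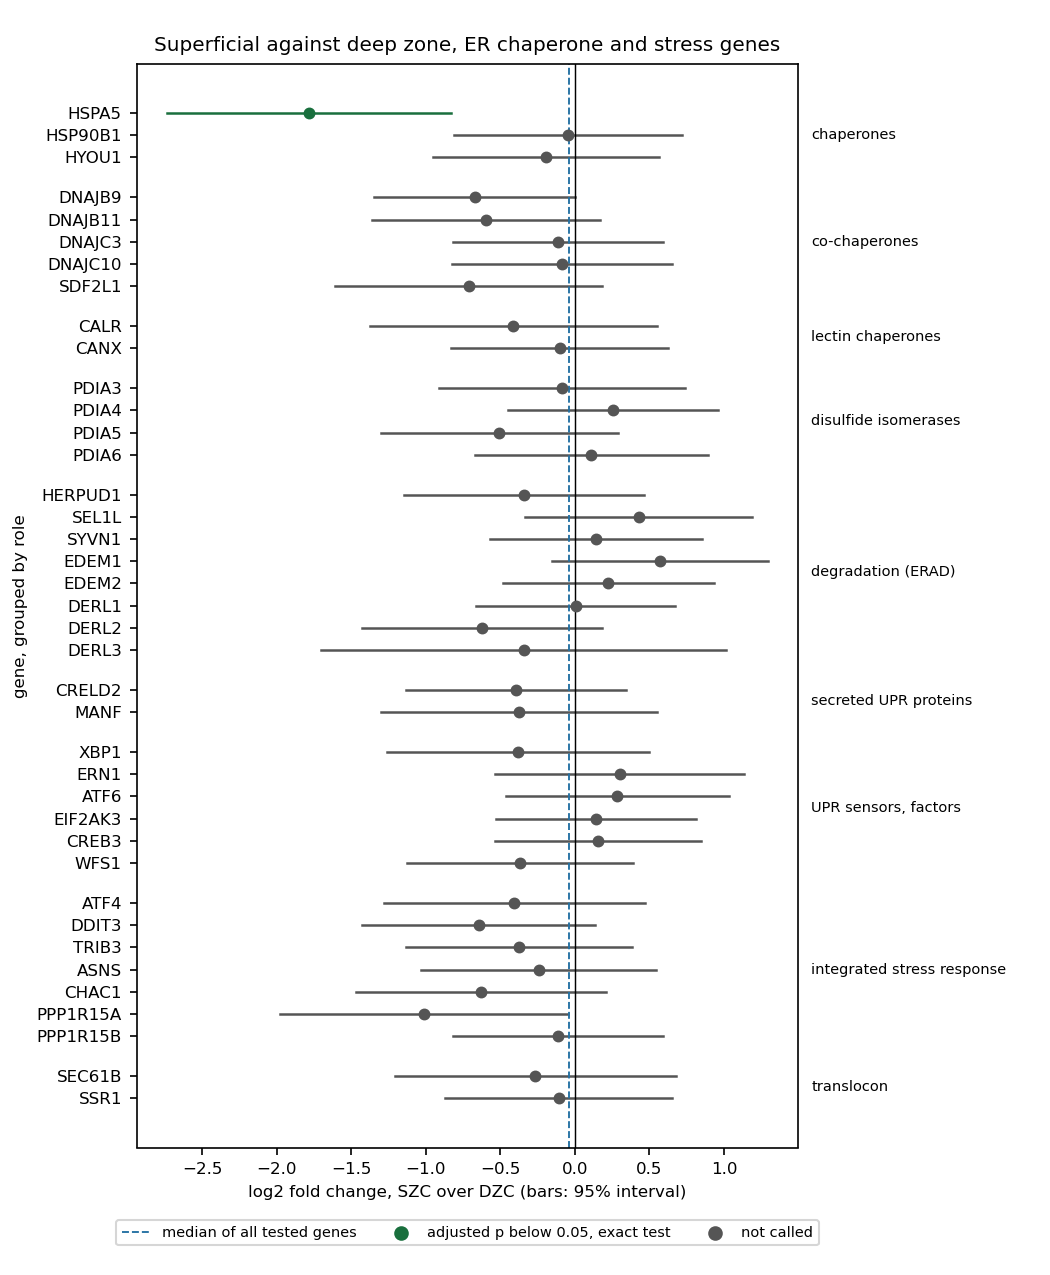
Log2 fold change of SZCs over DZCs (x axis) with its 95% interval for each of the 39 genes (y axis, grouped by role); the solid line marks 0 and the dashed line the median of all genes tested, -0.04. Only *HSPA5*, at -1.79, is coloured as passing the exact test, and only the intervals of *HSPA5* and *PPP1R15A* lie wholly below 0.

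A second list held other genes of the same pathways, with further isomerases, translocon and oligosaccharyltransferase subunits, ERAD factors, sensors and ATF4 targets. Of its 105 genes tested, 0 passed edgeR's exact test, 6 had an unadjusted p-value below 0.05, all higher in DZCs, and the median log2 fold change was -0.20. Over all genes 2.93% passed and 9.09% were below an unadjusted 0.05, so these counts do not exceed the background. On library totals, which raise the median of all genes by 0.30, 0 were called and 2 were below an unadjusted 0.05, both higher in SZCs. The quasi-likelihood test called 0 and DESeq2 called 1, which was *TMBIM6*, the gene of an ER membrane protein known as BAX inhibitor 1. It was at 269 and 325 CPM in SZCs and at 659 and 548 CPM in DZCs, with a log2 fold change of -1.02 (adjusted p = 0.15 by edgeR's exact test and 0.0482 by DESeq2). *SSR3*, a further subunit of the translocon-associated complex, was at 185 and 197 CPM in SZCs and at 517 and 277 CPM in DZCs, a log2 fold change of -1.06. *CALR3*, a relative of calreticulin, had the lowest value, -1.29, but at no more than 21 counts in any library. At the other end were *CREB3L2* (0.60), *ATF5* (0.55) and *EIF2AK4* (0.48), and none of these 3 passed the test.

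The chaperones of the cytosol and mitochondria, taken as a comparison outside the ER, gave 0 calls among 20 rows tested in edgeR's exact test, in the quasi-likelihood test and in DESeq2, with 1 row below an unadjusted 0.05 in each, higher in DZCs. Over all genes 2.93%, 0.00% and 3.09% were called by these tests and 9.09% were below an unadjusted 0.05 in the exact test. On library totals 0 rows passed edgeR's exact test, and 3 rows higher in SZCs and 1 higher in DZCs were below an unadjusted 0.05. Their median log2 fold change was -0.32. *CRYAB*, a small heat shock protein gene, had the lowest value, -1.13 (adjusted p = 0.136 by edgeR's exact test), followed by *HSPD1*, which the table lists in a pair of rows (-0.87 and -0.63), and *TRAP1* (-0.66). *HSPA1A*, the stress-inducible HSP70 gene of the cytosol, had the highest value, at 175 and 120 CPM in SZCs and 98.3 and 93.4 CPM in DZCs, a log2 fold change of 0.62 (adjusted p = 0.734 by edgeR's exact test). *HSPB8* (0.55) and *DNAJB1* (0.43) came next.

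Many genes of the list also differed between the DZC libraries, and the balance of these differences depended on the scaling. With TMM, DZC replicate 1 exceeded DZC replicate 2 by more than 1.5-fold for 16 of the 39 genes and fell short of it by that factor for 4, where the whole table gives 21.4% and 27.4%. On library totals the counts turned around, with 2 genes (*PPP1R15A* and *SEC61B*) higher in DZC replicate 1 and 8 higher in DZC replicate 2, where the whole table gives 5.38% and 49.8%. SZC replicate 2 exceeded replicate 1 by that factor for *HSPA5* alone (12.0% of the whole table), and replicate 1 exceeded replicate 2 for 0 genes (6.27% of the whole table). With TMM the widest gaps between the DZC libraries were those of *PPP1R15A* (2.37-fold), *SEC61B* (2.22-fold), *MANF* (2.20-fold), *CALR* (2.10-fold) and *XBP1* (1.95-fold). The 4 genes with the opposite order were *SEL1L* (1.51-fold), *ATF6* (1.55-fold), *DERL3* (1.63-fold) and *ERN1* (1.73-fold). On library totals these 4 had the widest gaps, with log2 ratios of DZC replicate 1 to replicate 2 from -1.35 for *ERN1* to -1.15 for *SEL1L*, against 0.68 for *PPP1R15A*. In SZCs the next widest gaps after *HSPA5* were those of *DDIT3* (1.35-fold), *CRELD2* (1.33-fold) and *ERN1* (1.28-fold), all higher in replicate 2, and *EDEM1* (1.26-fold), higher in replicate 1.

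DZC replicate 1 was the highest of the 4 libraries for 26 of the 39 genes and the lowest for 6, where the whole table gives 36.3% and 36.5%. The 26 included 6 of the 7 integrated stress response genes and all 3 HSP70 and HSP90 chaperones, while the 6 were *DNAJC10*, *SEL1L*, *EDEM1*, *DERL3*, *ERN1* and *ATF6*, so that 3 were ERAD genes and 2 were sensors. On library totals, DZC replicate 1 was highest for 13 genes and lowest for 18, where the whole table gives 10.5% and 67.4%. With DZC replicate 2 left out, so that DZC replicate 1 alone stood for its zone, 11 genes of the list passed edgeR's exact test, where 20.7% of the whole table passed, 8.51% as higher in DZCs and 12.2% as higher in SZCs. These were *HSPA5*, *PPP1R15A*, *CHAC1*, *DERL2*, *DDIT3*, *PDIA5*, *DNAJB11*, *SDF2L1*, *MANF* and *CALR*, higher in DZCs, and *EDEM1*, higher in SZCs. With DZC replicate 1 left out instead, only *HSPA5* passed. In these fits the single library is assumed to vary like the other zone.

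**Figure D5:**
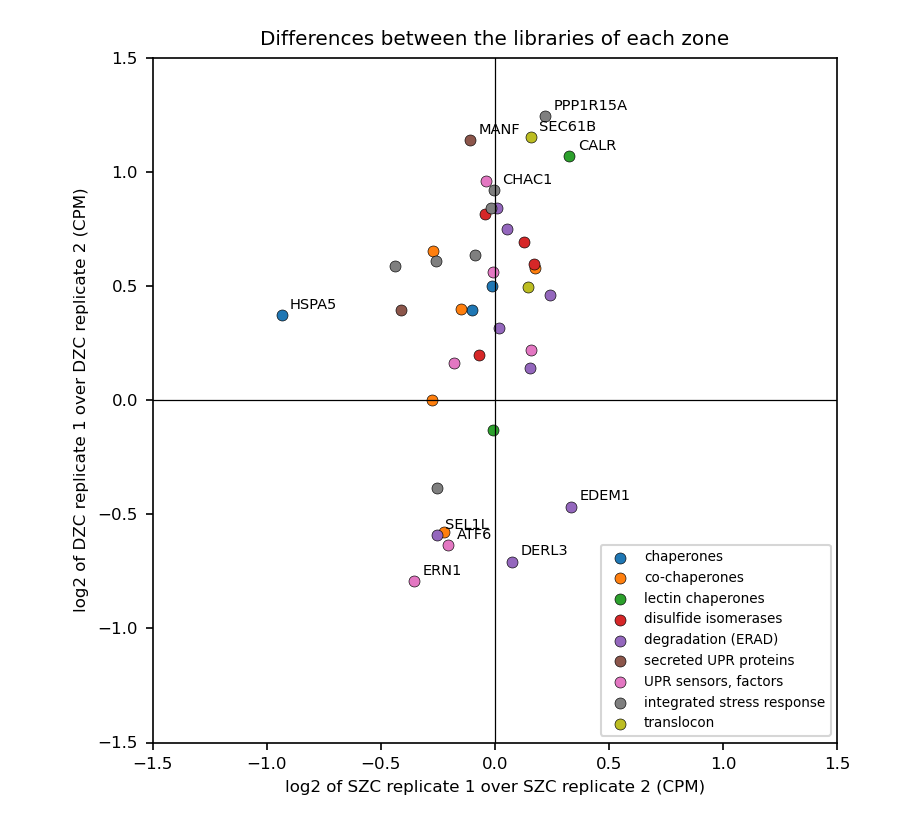
Log2 ratio of replicate 1 to replicate 2 in SZCs (x axis) and in DZCs (y axis) for each of the 39 genes, computed from TMM-normalized CPM and coloured by role. Most points lie near 0 on the x axis and above 0 on the y axis, up to 1.24 for *PPP1R15A*, while *HSPA5* stands apart at -0.94 on the x axis and *ERN1* is the lowest point; on library totals 2 genes lie over 1.5-fold above 0 on the y axis and 8 below.

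Other cell markers also moved between these libraries. The 9 chondrocyte markers, led by *COL2A1*, summed to 134476 and 136400 CPM in SZCs and to 524134 and 204178 CPM in DZCs, and *MATN3*, the gene of a cartilage matrix protein, was the 1 that passed the test, as higher in DZCs. The 6 fibroblast markers summed to 20037 and 29356 CPM in SZCs, 3327 CPM in DZC replicate 1 and 14635 CPM in DZC replicate 2, with 0 of 6 passing in edgeR's exact test and 3 below an unadjusted 0.05. Of the 6, *POSTN* (log2 fold change -2.50, with 181 CPM in DZC replicate 2), *THY1* (0.19) and *COL1A1* (0.95) overlapped between the zones. The 9 cell cycle markers summed to 184 and 210 CPM in SZCs and to 19.0 and 326 CPM in DZCs, so that DZC replicate 1 had the lowest level, and 0 passed in edgeR's exact test or at an unadjusted 0.05. The 10 hypertrophic and bone markers summed to 113 and 110 CPM in SZCs and to 35.2 and 274 CPM in DZCs, and *DMP1* among them was at or below 3 counts in every library. The sum was mostly *SPP1*. Transcripts of *MMP13*, *IBSP*, *ALPL* (1 and 445 counts in DZCs), *COL10A1* (0 and 221) and *SP7* (1 and 140) were nearly all from DZC replicate 2 among the DZC libraries, whereas *IHH*, a signal of prehypertrophic chondrocytes, was the 1 that passed, at 0.591 and 0.215 CPM in SZCs and 12.1 and 2.15 CPM in DZCs (adjusted p = 0.016 by edgeR's exact test). As with *HSPA5*, the zones did not overlap in the chondrocyte sum (higher in DZCs) or the fibroblast sum (higher in SZCs). They overlapped in the cell cycle and hypertrophic sums. Of the 9 chondrocyte markers, 6 had both DZC libraries above both SZC libraries. For *ACAN*, *HAPLN1* and *SOX9* the zones overlapped, with DZC replicate 2 below both SZC libraries. The part of matrix output, cell cycle or cell composition in the levels described here was not tested.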

How the data were processed

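Per the labels and the study's methods, single-end reads of SMART-Seq v4 libraries were aligned by the authors with STAR 2.5.2b to the cow genome (Ensembl build UMD 3.1) and counted per gene without regard to strand; the deposited counts are not normalized. A second deposited table holds the log2 fold changes and adjusted p-values of the authors' own comparison; of it only gene names were used. The ATAC-Seq samples were not analysed here.

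For the analysis, edgeR 4.0.16 (R 4.3.3) was applied to these counts. The default expression filter kept 12857 genes, libraries were scaled by TMM, and the zone difference was tested with the exact test and Benjamini–Hochberg adjustment over all genes tested at 0.05. Standard errors come from the negative binomial model with gene-wise dispersion, and 95% intervals are 1.96 standard errors to either side. The genes and their roles, the comparison lists and the markers were chosen with earlier results of these data known. Every gene of the list is named. Of the other pathway genes and the cytosolic and mitochondrial chaperones, those that passed the test and the 3 largest and 3 smallest log2 fold changes are named, while *TMBIM6* also falls under the smallest 3. Of the markers, *COL2A1*, *ACAN*, *HAPLN1*, *SOX9*, *MATN3*, *COL1A1*, *POSTN*, *THY1* and those of the hypertrophic and bone list were named after their values were seen.

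Alternatives were the quasi-likelihood test, DESeq2 1.42.0, leaving out the filter or requiring over 1 CPM in 2 libraries, DESeq2 size factors, library totals, a replicate block and each library left out. Replicates differed by far more than sampling noise (chi-square per degree of freedom 65.6 in SZCs and 313 in DZCs), and none was counted as a duplicate. The scripts were tested on simulated counts. In RefSeq's table of assembly ARS-UCD2.0, which is not the build of the counts and was used only for neighbours, all 40 genes were matched by symbol and 14 overlap another gene, among them *DDIT3*, *CREB3*, *SYVN1*, *ATF6* and *ERN1*, whose counts could include reads of the neighbour; *HSPA5* overlaps none.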

Additional observations from a re-analysis of the deposited data

How the results depend on the processing

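The number of genes of the list called was 1 in the exact test of edgeR, with 1 higher in DZCs. It was 0 (0 higher in DZCs) in the quasi-likelihood test, with library totals and with the replicate block. With each library left out in turn it ranged from 0 to 11, with 0 to 10 higher in DZCs and 0 to 1 higher in SZCs. Of the other pathway genes, 0 were called by the exact test, 1 by DESeq2 and 0 to 22 with a library left out. Over all genes, 377 were called by the exact test, 0 by the quasi-likelihood test (1126 at an unadjusted p-value below 0.05), 397 by DESeq2, and 58 to 2725 with a library left out. The causes were not tested.

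Whether a replicate number marks a shared joint is not stated in the labels. Deviations of same-numbered libraries from the zone means had a correlation of 0.42 across 12857 genes and 0.27 across the 39. With the replicate number as a block, 347 genes were called by the quasi-likelihood test and 0 of the list, with *HSPA5* at -1.85 (adjusted p = 0.282 by edgeR's quasi-likelihood test).

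Of the 39 genes, 19 kept the sign of their log2 fold change under all 11 alternatives, and 20, of which 0 had passed the exact test, changed sign under at least 1. With library totals, log2 fold changes became positive for *HSP90B1* (0.30), *HYOU1* (0.16), *DNAJC3* (0.23), *DNAJC10* (0.17), *CANX* (0.19), *PDIA3* (0.28), *HERPUD1* (0.0347), *MANF* (0.0391), *XBP1* (0.0130), *ASNS* (0.12), *PPP1R15B* (0.15), *SEC61B* (0.14) and *SSR1* (0.24). With a library left out, the log2 fold change ranged from -0.21 to 0.17 for *HSP90B1*, -0.41 to 0.0843 for *HYOU1*, -0.28 to 0.10 for *DNAJC3*, -0.34 to 0.25 for *DNAJC10*, -0.84 to 0.22 for *CALR*, -0.38 to 0.31 for *PDIA3*, -0.14 to 0.44 for *PDIA6*, -0.65 to 0.0882 for *HERPUD1*, -0.0559 to 0.39 for *SYVN1*, -0.13 to 0.18 for *DERL1*, -0.64 to 0.0761 for *DERL3*, -0.82 to 0.31 for *MANF*, -0.77 to 0.18 for *XBP1*, -0.0354 to 0.77 for *ERN1*, -0.75 to 0.0818 for *ATF4*, -0.50 to 0.10 for *ASNS*, -0.29 to 0.11 for *PPP1R15B*, -0.72 to 0.42 for *SEC61B* and -0.32 to 0.17 for *SSR1*. The widest standard error was that of *DERL3*, at 15 to 34 counts, and depth was not varied.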
